A study of Mus musculus with 8 samples.

Results

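Fibroblasts carrying 4 cardiac reprogramming factors were treated with the inhibitor C646 at 5 µM or with 0.1% ethanol and compared at day 7. Each group had 2 libraries, so 4 of the series' 8 libraries carry the comparison. Every gene with a count in any of the 8 libraries was included, which came to 34250 of the 50600 genes listed. The cells were C57BL/6 mouse embryonic fibroblasts, a mixed primary culture, that had been infected with retroviruses encoding GHMT (Gata4, Hand2, Mef2c and Tbx5) and kept in a serum-free medium. All 4 groups carried the viruses, and the other 2 groups received 1% DMSO or 5 µM of the inhibitor I-CBP112. The solvents of both inhibitors are not given in the sources used here, and the reference group of the fold changes is not named in the files. It was read as the ethanol group, the 1 treatment without a comparison of its own. The libraries are numbered 2 and 3 in every group, and whether they came from separate cultures is not stated. The errors below were read as the spread within groups pooled over all 8 libraries, not only the 4 compared. That spread may be technical.

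CBP (gene Crebbp) and p300 (gene Ep300) are closely related coactivators that are brought to promoters and enhancers by transcription factors and acetylate histones there. CBP was found as the partner of phosphorylated CREB, and both proteins also serve GATA4, MEF2 proteins, HIF, NF-kappa-B and the Smads. C646 was described as a competitive inhibitor of their acetyltransferase site, whereas I-CBP112 binds their bromodomain, a pocket that reads acetylated lysine. In direct reprogramming, GHMT turn part of a fibroblast culture towards a state with cardiac sarcomere genes switched on.

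Few genes separated C646 from ethanol. The authors' deposited table put 2 of 34250 genes (0.00584%) past an adjusted p of 0.05 (DESeq2, Benjamini-Hochberg over all 34250): Cacnb4, a calcium channel subunit, fell, and Gm37167, a short unclassified transcript, rose (0.00292% in each direction). Of the 14830 genes with enough reads to be tested in every table, called tested genes from here on, a 2-fold change in either direction was excluded for 12134 (81.8%) and a 1.5-fold change for 8961 (60.4%), which is 35.4% and 26.2% of all genes with counts. Here a change counts as excluded when 2 one-sided tests on the authors' deposited fold change and standard error, adjusted over all 34250 genes, place the true value inside that limit. The lowest mean among the tested genes was 26.1 normalised counts over the 8 libraries. The same 14830 genes gave 2368 calls (16.0%) for DMSO and 1468 (9.90%) for I-CBP112 against the same ethanol libraries in the authors' deposited tables.

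**Figure D1:**
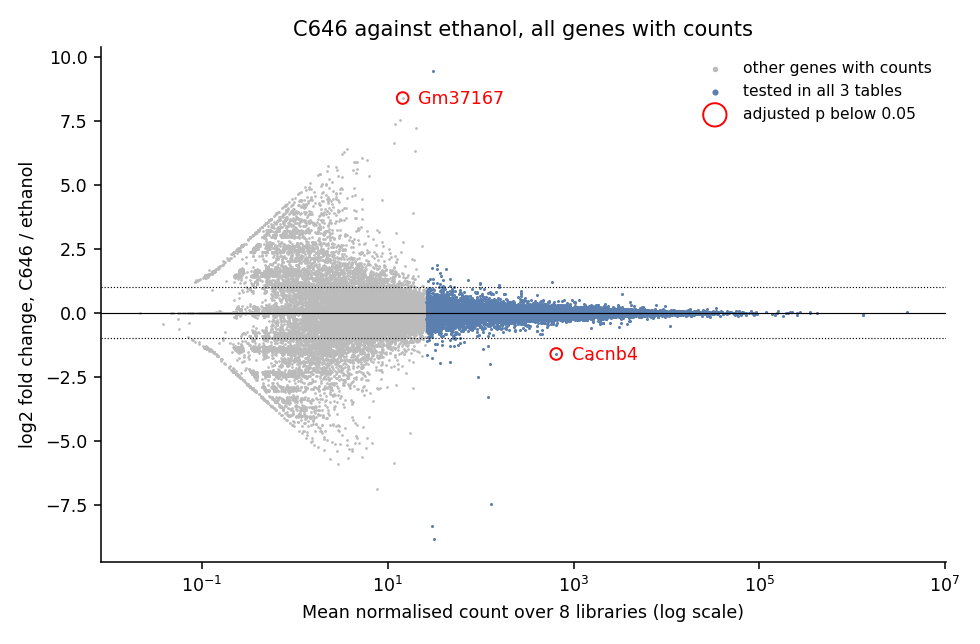
The log2 fold change of C646 over ethanol (y axis) is plotted against the mean normalised count over 8 libraries (x axis, log scale) for 34250 genes, with the 14830 tested genes in blue and the others in grey; dotted lines mark 2-fold. The cloud narrows to within 2-fold as the mean count grows, and the 2 genes circled in red are those past an adjusted p of 0.05.

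The groups were of similar depth. The lowest-count genes, read as holding 1 read in 1 library, gave the worth of a single read, and from it estimated totals of 38100000 and 43300000 reads for the ethanol libraries and 35800000 and 43300000 for the C646 libraries, in no known order. These low genes numbered 2312, and for 2306 the fold changes placed the reads in a single group, the reference for 598 and C646 for 622, so the reference is a group of its own and not a pool of the others. The sums of all normalised counts differed by a log2 ratio of -0.0088 (C646 over ethanol). Markers of the labelled cell type were abundant: all 12 fibroblast markers were tested genes, from Thy1 at a mean of 3346 to Col3a1 at 348364, and their summed level differed by a log2 ratio of -0.024. All 9 cardiac markers, Myh7 to Tnnt2, were also tested genes, with a log2 ratio of their sums of 0.019. Abundant genes weigh most in this sum. The listed values of Tnnt2, Tnni3 and Nppa were above the ethanol level with C646, and those of Myh6, Myh7, Myl7, Actc1, Actn2 and Ryr2 below it. None of the 9 passed the test, and the 95% interval of each included no change. The deposited tables hold no value of a single library, so levels below are group means of 2 libraries rebuilt from the authors' mean and fold changes, and each error is the authors' standard error (SE) of the log2 fold change.

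Cacnb4 (ENSMUSG00000017412.15) encodes a beta subunit of voltage-gated calcium channels, the cytoplasmic part that carries the pore subunit to the membrane and tunes its gating. It lies on the minus strand of chromosome 2, 52428320 to 52676831 (GRCm38, GENCODE M21). Its group mean was 878 normalised counts with ethanol, 287 with C646, 814 with DMSO and 626 with I-CBP112, so C646 was the lowest of the 4. The authors' deposited table gave a log2 fold change of -1.61 ± 0.27 (SE, 2 libraries a group) with an adjusted p of 7.38e-05 (DESeq2), a level 3.06 times lower, with a 95% interval of 0.227 to 0.471 times the ethanol level. The call rests on the normal distribution of the Wald statistic: with a t distribution with 4 degrees of freedom 0 genes passed and the Cacnb4 call was lost. The DMSO and I-CBP112 tables gave -0.11 ± 0.27 and -0.49 ± 0.27 for the same gene. Against DMSO the C646 level differed by -1.51 ± 0.27 on the log2 scale (adjusted p = 1.25e-06) and against I-CBP112 by -1.13 ± 0.27 (adjusted p = 0.000948), both from Wald tests on the rebuilt standard errors that use the same 2 C646 libraries. How the 2 C646 libraries differed from each other for this gene is not shown by these tables.

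The other beta subunits, a group chosen after these values were seen, did not pass the test. Cacnb3, the most abundant of them, stood at 1474 normalised counts with ethanol and 1485 with C646, and a 1.5-fold change was excluded. Cacnb1 had a log2 fold change of -0.17 ± 0.27 and Cacnb2 of -0.29 ± 0.29 in the authors' deposited table. Among the pore-forming alpha-1 subunits, 7 of 10 were tested genes, 0 passed, and Cacna1c, the main cardiac L-type pore, gave -0.06 ± 0.17. The 13 tested genes within 1 Mb of Cacnb4 had a median log2 fold change of -0.03. A430018G15Rik, a transcript of the other strand that overlaps the end of Cacnb4 (whether reads were counted by strand is not stated), gave -0.15 ± 0.47 in the authors' deposited table, and the protein-coding genes on either side, Stam2 and Arl5a, gave -0.03 ± 0.14 and 0.01 ± 0.11. Neb, the gene of the giant muscle filament protein nebulin, was the lowest neighbour at -1.001 ± 0.50 and did not pass the test (adjusted p = 1.00, DESeq2).

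RefSeq lists 3 start sites for Cacnb4, and the window before the most downstream of them is shown because it begins the short transcripts and overlaps no exon. It covers chr2:52558612-52558861 on the minus strand (RefSeq, GRCm38.p6), 250 bases that end just before the start at 52558611 and lie inside an intron of the long transcripts.
Cacnb4 internal start: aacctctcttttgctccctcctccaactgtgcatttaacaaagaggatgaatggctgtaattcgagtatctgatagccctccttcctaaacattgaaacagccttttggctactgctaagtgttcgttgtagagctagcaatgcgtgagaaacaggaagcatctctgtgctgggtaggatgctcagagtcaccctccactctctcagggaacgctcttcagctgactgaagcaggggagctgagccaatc
It holds none of the 6 motifs searched on both strands, the CREB site TGACGTCA, the AP-1 site TGANTCA, the T-box AGGTGTGA, the CArG box, the MEF2 box and the NF-kappa-B site. Of the 3 Cacnb4 windows, 1 that overlaps an exon and is not printed holds an NF-kappa-B site, and 0 hold any of the other motifs. Over all 32851 RefSeq windows of 300 bases, 1.79% hold the CREB site, 7.81% the AP-1 site, 1.28% the T-box and 8.46% the NF-kappa-B site. Which of the Cacnb4 starts the reads came from is not given in the tables, which are per gene.

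Gm37167 (ENSMUSG00000102467.1) is a transcript annotated as awaiting experimental support, on the minus strand of chromosome 9, 32839527 to 32839922, outside any other gene. Its mean over the 8 libraries was 14.5 normalised counts, and the rebuilt means put all of it in the C646 group, at 57.3, with the other 3 groups at the level the fit gives to a count of 0. The authors' deposited table gave a log2 fold change of 8.39 ± 1.68 and an adjusted p of 0.0098 (DESeq2). With the ethanol level set to a floor of 3 counts per group, the C646 mean was 38.2 times as high. That ratio carries no error of the C646 mean, and the 95% interval of the deposited fold change began at 34.3-fold. With so few reads, 1 library could hold all of them, and no value of a single library is available. The SE of 1.68 stood beside 4.79 for Gm26244, another gene read only with C646, at 121 normalised counts. How the reads of either gene were split between the C646 libraries was not tested.

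Such on-off patterns were found in both directions. Of all 34250 genes, 19 stood under the floor with ethanol and at 10 or more normalised counts with C646, and 13 stood the other way round. Some of the 19 were also read in the other groups, such as Gm2274 at 40.3 with DMSO and 14.3 with I-CBP112. Others, such as Gm2541, were read only with C646. After Gm37167 the gene of this kind nearest to the threshold was Gm43694, at 31.9 normalised counts with C646 and 22.2 with I-CBP112, with an adjusted p of 0.0959 (DESeq2) in the authors' deposited table.

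The next genes in rank did not pass either. By Wald statistic, the fold change divided by its SE, the 10 highest named genes with a mean of 50 or more included Rnu3a, Slc35d1, Wnk4, Mtcl1, Gins2, Psd4, Stxbp2, Tnk2 and Dhx37. The 10 lowest were Cacnb4, Ncam1, Ipo4, Ralgps2, Dpy19l3, Cish, Zfp169, Ago3, Fras1 and Slc38a5. Some of these genes were called in the same direction under other treatments, and every comparison shares the ethanol libraries. Wnk4 gave 2.15 with DMSO and 1.31 with I-CBP112, Mtcl1 gave 1.57 and 1.31, and Slc38a5 gave -1.08 with DMSO. Others were not called with DMSO, such as Gins2 at -0.0044 and Ralgps2 at -0.10. Rnu3a, a U3 small nucleolar RNA that guides cleavage of ribosomal RNA precursors, had 2907 normalised counts with ethanol and 4870 with C646, and the authors' deposited table gave 0.74 ± 0.17 with an adjusted p of 0.124 (DESeq2). A second entry of Rnu3a at the same locus had 2556 and 726, so the summed level was 5462 with ethanol and 5596 with C646, a ratio of 1.02. How reads were shared between such overlapping entries was not tested, so the value of either is uncertain. Of all tested genes, 43 have a mean, a fold change and an SE exactly equal, as deposited, to those of another tested gene. Ncam1, a cell adhesion molecule, stood at 1617 with ethanol and 1073 with C646, which the authors' deposited table gave as -0.59 ± 0.15 with an adjusted p of 0.607 (DESeq2). For the other named genes in this ranking the deposited adjusted p was 1.00, with log2 fold changes from 0.40 (Tnk2) to 1.28 (Psd4, an exchange factor for small GTPases) on the high side and from -0.35 (Ago3, an Argonaute protein) to -0.87 (Slc38a5, an amino acid transporter) on the low side.

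Across the tested genes the differences were small in both directions. The median log2 fold change was 0.0031, the central 95% of genes lay between -0.42 and 0.42, and 13599 genes (91.7%) differed by less than 25%. A fold change of 2 or more was listed for 54 tested genes (0.364%) with C646, against 921 with DMSO and 620 with I-CBP112. The median SE was 0.18 in all 3 tables. The Wald statistics of C646 had an SD of 0.608, where a standard normal statistic has 1, and those of DMSO and I-CBP112 had SDs of 2.23 and 1.86. Accordingly 111 tested genes (0.748%) had an unadjusted p under 0.05, fewer than the 5% that a standard normal statistic gives, and over all 34250 genes there were 199 (0.581%). By chromosome the median log2 fold change ran from -0.0074 to 0.0087. Among 12984 tested protein-coding genes the median was 0.0035 and a 2-fold change was excluded for 88.2%.

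**Figure D2:**
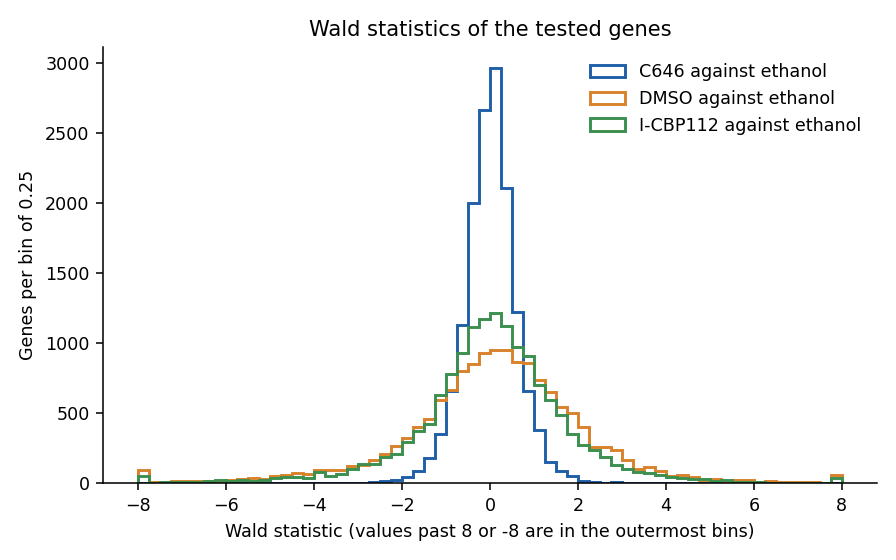
Numbers of tested genes (y axis) by Wald statistic in bins of 0.25 (x axis, no unit) in the authors' deposited tables for C646, DMSO and I-CBP112, each against ethanol. The C646 curve, with an SD of 0.608, is the narrowest, and those of DMSO and I-CBP112 have SDs of 2.23 and 1.86.

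How small a change the data exclude depended on the level of the gene. For the 5441 genes with a mean of 1000 to 10000 normalised counts, the median gene's 95% interval reached no farther than 1.251-fold from the ethanol level, and a 2-fold change was excluded for 99.2% of them. For the 6103 genes between 100 and 1000 the median interval reached 1.42-fold and a 2-fold change was excluded for 95.1%. Below that the data said little: it was excluded for 8.41% of the 6005 genes between 10 and 100, where the median interval reached 3.08-fold, for 0 of the 8594 genes between 1 and 10 and for 0 of the 7670 genes below 1. A change of 25%, meaning a rise by that share or the matching fall, was excluded for 0 genes after adjustment (0%), while the unadjusted 95% interval lay inside that limit for 3149 tested genes (21.2%). Even above 10000 counts the median SE was 0.12, which is wide for this limit. The 0 therefore reflects the precision of the data and not the size of the changes. Turned around, the change that a gene with the median SE of its class would have needed to pass alone, a Wald statistic of 4.82, was 1.60-fold at 1000 to 10000 counts, 2.01-fold at 100 to 1000 and 9.52-fold at 10 to 100.

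**Figure D3:**
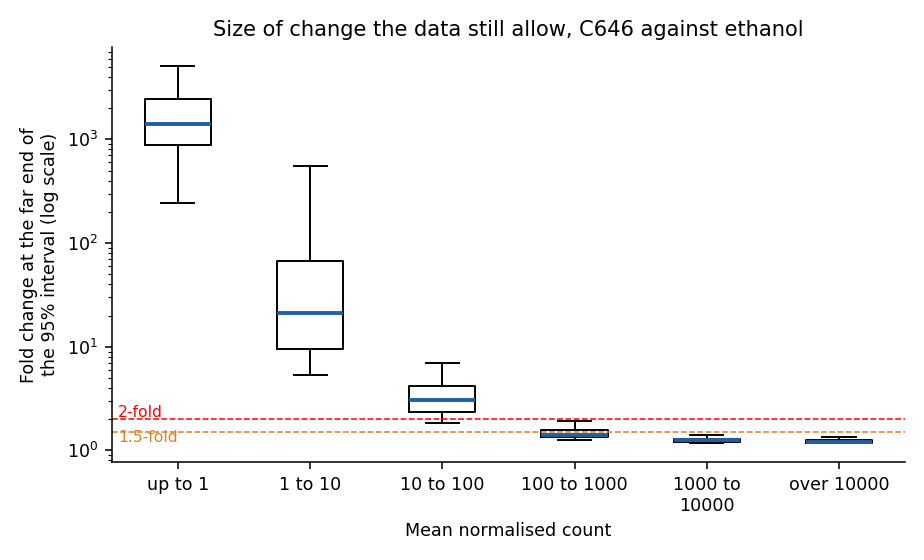
The fold change at the end of each gene's 95% interval farther from 1 (y axis, log scale), by class of mean normalised count (x axis); lines are medians, boxes the quartiles and whiskers the 5th and 95th percentiles over genes. The median falls from 20.9-fold at 1 to 10 counts to 1.42-fold at 100 to 1000 and 1.21-fold above 10000, below the dashed 1.5-fold line.

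Of the 5878 genes with a mean of 1000 or more, a 2-fold change was not excluded for 50. They included Nppa, the gene of atrial natriuretic peptide, whose interval ran from 0.203 to 6.85 times the ethanol level, the early response genes Fos, Egr1 and Btg2, Myl4 and several small nuclear and nucleolar RNAs. The SE of Nppa was 1.29, beside a median of 0.14 for genes with a mean of 1000 to 10000. It was also 1.29 for DMSO and for I-CBP112, so which libraries set it is not shown.

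The 4 reprogramming factors and the genes of the enzymes that C646 targets stood close to their ethanol level. Gata4 stood at 8699 normalised counts with ethanol and 8850 with C646, and the authors' deposited table gave 0.02 ± 0.12. Hand2 gave 0.02 ± 0.12 and Mef2c 0.01 ± 0.13 there, and for all 3 a 1.5-fold change was excluded. Tbx5 gave 0.02 ± 0.35 with an interval of 0.631 to 1.64 times the ethanol level, inside 2-fold but not inside 1.5-fold. Reads of the viral copy and of the cell's own gene cannot be told apart in these values. Crebbp gave 0.02 ± 0.21 and Ep300 -0.16 ± 0.15 in the authors' deposited table, both with a 1.5-fold change excluded, and 0 of the 4 tested genes for CBP, p300 and the CITED proteins passed. The 15 other histone acetyltransferases had a median log2 fold change of -0.0067, with 0 passing and a 2-fold change excluded for all 15, from Kat7 at -0.13 ± 0.14 to Hat1 at 0.28 ± 0.21. The 24 tested bromodomain genes (median 0.02) and the 18 deacetylase and sirtuin genes (median -0.0043) likewise had 0 past the test. A 2-fold change was excluded for every member of both lists, beside 81.8% of all tested genes.

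Over the 36 gene lists used here, 693 distinct tested genes, 0 passed the test, beside 1 of all 14830 tested genes (0.00674%). An unadjusted p under 0.05 was found for 5 of the 693 (0.722%, beside 0.748% of all tested genes): Gins2, Cenpe and Cpt1b were on the higher side and Ccne2 and Neb on the lower. A 2-fold change was excluded for 628 (90.6%, beside 81.8% of all tested genes) and a 1.5-fold change for 525 (beside 60.4% of all tested genes). List medians ran from -0.13 to 0.13, and 33 of the 36 lay within 0.1 of 0.

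Genes controlled by partners of CBP and p300 showed no called change. The 21 tested CREB targets, genes induced by cyclic AMP, had the highest list median, 0.13, with 15 values above 0 and 6 below. Their largest values belonged to rarely read genes: Nr4a3, a nuclear receptor, was at 24.8 normalised counts with ethanol and 47.8 with C646, and the authors' deposited table gave 0.94 ± 0.60. Pde4d, the most abundant, gave -0.03 ± 0.14. A 2-fold change was excluded for 15 of the 21 CREB targets, beside 81.8% of all tested genes, and Fos (0.27 ± 0.40) and Egr1 (0.33 ± 0.68) were among those where it was not. Of the 17 CREB-list genes with a RefSeq window, the CREB site TGACGTCA was found in the window of 1 tested gene, Dusp1, a phosphatase of MAP kinases, and that window is shown for this reason. The printed stretch covers chr17:26508520-26508722 on the minus strand (RefSeq, GRCm38.p6), upstream of every annotated exon, with the site in capitals 143 bases before the start.
Dusp1: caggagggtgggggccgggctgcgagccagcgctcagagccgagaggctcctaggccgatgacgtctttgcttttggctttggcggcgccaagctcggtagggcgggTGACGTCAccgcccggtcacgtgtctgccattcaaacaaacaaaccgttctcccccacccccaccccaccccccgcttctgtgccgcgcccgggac
Dusp1 stood at 1996 normalised counts with ethanol and 2232 with C646, and the authors' deposited table gave 0.16 ± 0.19. The 21 tested HIF targets had a median of 0.0033, from Car9 (carbonic anhydrase 9) at -0.32 ± 0.37 to Pfkfb3 at 0.15 ± 0.23, and Aldoa, the most abundant, gave 0.00 ± 0.14 with a 1.5-fold change excluded. For NF-kappa-B targets and cytokines the median over 18 tested genes was 0.04, with the chemokine Cxcl10 highest at 0.79 ± 0.49 and Vcam1, a leukocyte adhesion molecule, at 0.04 ± 0.14.

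Cardiac genes held no called member. The 24 tested sarcomere genes had a median log2 fold change of -0.0041 with C646, with 0 past the test. Against the same ethanol libraries the list medians were 0.96 with DMSO (15 of 24 called, beside 16.0% of all tested genes) and 1.18 with I-CBP112 (18 of 24, beside 9.90%). Tnnt2, cardiac troponin T, had 54173 normalised counts with ethanol and 57336 with C646, and the authors' deposited table gave 0.08 ± 0.12 with a 1.5-fold change excluded. Myh7, the slow myosin heavy chain, had the lowest value of the list at -0.76 ± 0.43 from 66.9 counts with ethanol, and its 95% interval, 0.332 to 1.06 times the ethanol level, reached past 2-fold. Among 23 tested calcium handling and ion channel genes the median was -0.0076, and Atp2a2, the calcium pump of the sarcoplasmic reticulum, gave -0.01 ± 0.12. Ankrd1, a stress-responsive muscle ankyrin, gave 0.08 ± 0.12 at 39955 counts with ethanol, whereas the natriuretic peptide genes Nppa (0.24 ± 1.29) and Nppb (0.31 ± 1.17) were measured too loosely to place. The 14 other cardiac transcription factors had a median of 0.0051, and Mef2a gave -0.01 ± 0.12.

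Genes of the fibroblast state were not called. All 38 tested fibroblast and matrix genes lay between -0.15 (Col6a3) and 0.09 (Snai1), 0 passed, and a 2-fold change was excluded for all 38. It was excluded for 81.8% of all tested genes and for 99.2% of genes with a mean of 1000 to 10000 counts. The median SE of the list was 0.13, beside 0.18 over all tested genes. The list median was -0.03, beside -0.46 for DMSO and -0.54 for I-CBP112. Col3a1, type III collagen, had 442902 normalised counts with ethanol and 433769 with C646, and the authors' deposited table gave -0.03 ± 0.12. For smooth muscle genes the median over 15 was -0.04, from Myh11 at -0.07 ± 0.18 to Lmod1 at 0.05 ± 0.15, and a 2-fold change was excluded for all 15. The 23 TGF-beta response genes had a median of 0.0066, with Ctgf, a matricellular protein induced by TGF-beta, at 0.03 ± 0.18. The 23 tested Wnt, Notch and BMP genes had a median of 0.0018, with Notch1 lowest at -0.23 ± 0.26, beside list medians of -0.78 for DMSO and -0.64 for I-CBP112.

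Growth, stress and metabolic lists held no called gene either. The 40 cell cycle genes had a median of -0.01 and 0 past the test. An unadjusted p under 0.05 was listed for 3 of the 40, beside 0.748% of all tested genes: Cenpe, a kinetochore motor, at 0.80 ± 0.36, Gins2, part of the replicative helicase, at 0.66 ± 0.24, and Ccne2, cyclin E2, at -0.57 ± 0.28 in the authors' deposited table. For Ccnd2, cyclin D2, the most abundant of them, -0.18 ± 0.11 was listed with a 1.5-fold change excluded. The 35 interferon response genes had a median of 0.04, with Rsad2, an antiviral enzyme, highest at 0.71 ± 0.53. Their list median was -0.64 with DMSO and 0.03 with I-CBP112. Heat shock and endoplasmic reticulum chaperones (24 genes, -0.02 to 0.18), integrated stress response genes (27 genes, -0.18 to 0.15) and cytosolic ribosomal protein genes (34 genes, -0.11 to 0.14) each had 0 past the test. A 2-fold change was excluded for every member of these lists, beside 81.8% of all tested genes. The 32 cholesterol and fatty acid synthesis genes had a median of 0.0027, with a 1.5-fold change excluded for 31, beside 60.4% of all tested genes. The 46 tested nuclear genes of oxidative phosphorylation had 36 values above 0 and 10 below around a median of 0.03, beside medians of 0.29 and 0.28 with DMSO and I-CBP112. Other lists were one-sided too. Cytosolic ribosomal protein genes had 29 values above 0 and 5 below, and integrated stress response genes had 7 above and 20 below. Variant histone genes had 10 above and 1 below, and heat shock and chaperone genes 18 and 6. Fibroblast and matrix genes had 11 above and 27 below, and smooth muscle genes 4 and 11. The median of all tested genes was 0.0031, and no list was tested for its split. Mitochondrially encoded protein genes (13) had a median of -0.07, with mt-Co1, the most abundant, at 0.01 ± 0.10 and mt-Co2 at 0.41 ± 0.40.

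Markers of other cell types were tested genes for 6 of 8 macrophage entries, 2 of 5 endothelial, 2 of 5 neuronal and glial, 4 of 4 adipocyte, 2 of 5 chondrocyte and osteoblast and 1 of 4 epithelial genes. Over each whole list the summed level differed between C646 and ethanol by log2 ratios of -0.10 for macrophages, -0.0063 for endothelial cells, -0.02 for neurons and glia, 0.12 for adipocytes, 0.04 for chondrocytes and osteoblasts and -0.23 for epithelial cells. The epithelial sum was 64.9 normalised counts with ethanol and 55.2 with C646, with Epcam at a mean of 0.524. In bulk RNA, fewer cells of a type and less RNA per cell cannot be told apart.

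**Figure D4:**
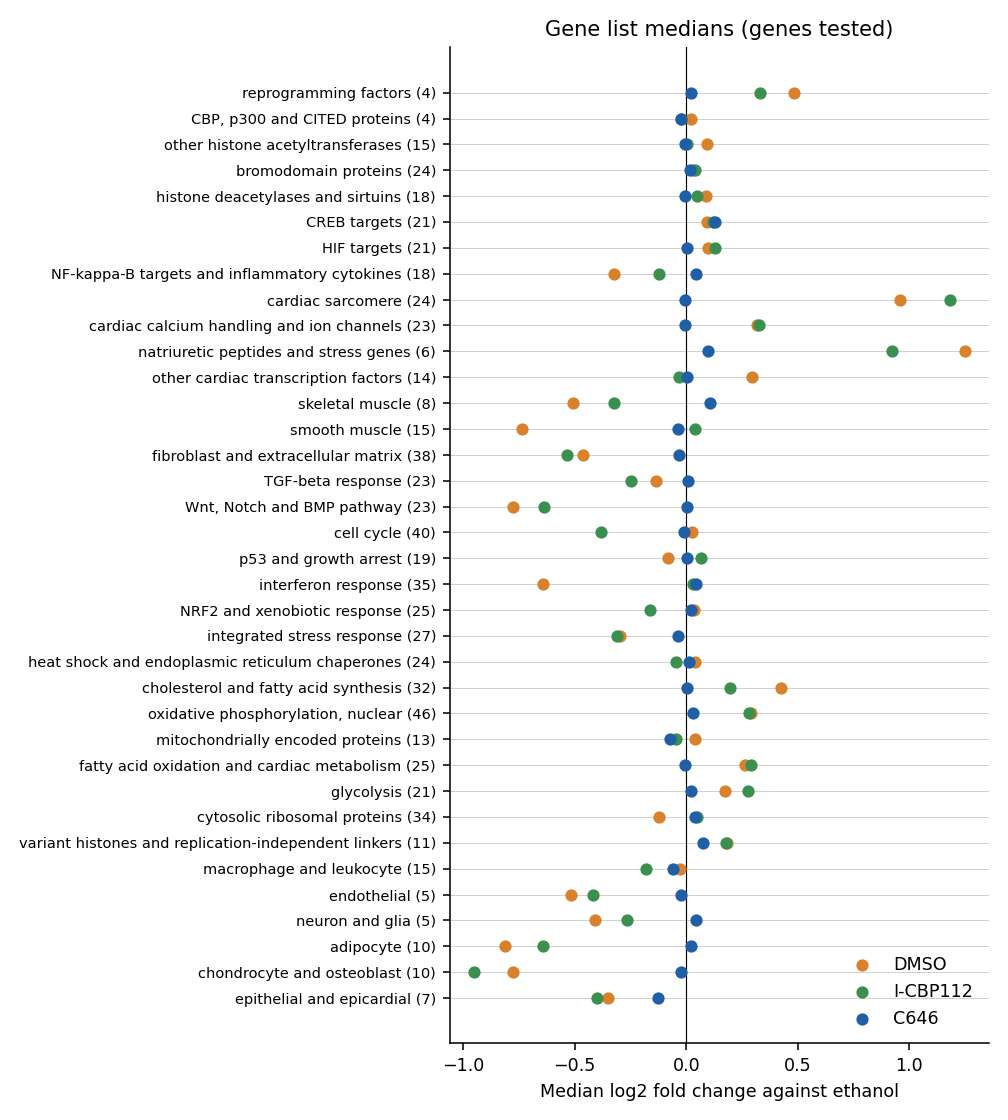
Median log2 fold change against ethanol (x axis) of the tested genes in each of 36 lists (y axis, number of tested genes in brackets) for C646 (blue), DMSO (orange) and I-CBP112 (green), all relative to the same 2 ethanol libraries. The C646 medians lie between -0.13 and 0.13, while the cardiac sarcomere list is at 0.96 with DMSO and 1.18 with I-CBP112.

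C646 and I-CBP112 were both at 5 µM and sampled at day 7, and both are directed at CBP and p300 but at different domains. They differed at 1453 of 14830 tested genes (9.80%), with C646 higher at 758 and lower at 695. C646 and 1% DMSO differed at 2351 (15.9%), with C646 higher at 1183 and lower at 1168. These are 2 contrasts, each by a Wald test on the difference of the deposited fold changes with a rebuilt SE and Benjamini-Hochberg adjustment over 14830 genes. With the upper bound of the SE the counts fell to 501 for I-CBP112 (C646 higher at 299, lower at 202) and 839 for DMSO (511 and 328). With fold changes centred on the median gene the split against DMSO was 1308 higher and 963 lower, so it depends on the scaling. The main counts, 1453 and 2351, are close to those against ethanol, 1468 (9.90%) for I-CBP112 and 2368 (16.0%) for DMSO. C646 itself differed from ethanol at 1 tested gene. Both contrasts share the I-CBP112 or DMSO libraries with those comparisons, so they are not separate from them. The 2 contrasts also share the C646 libraries, and the solvent of I-CBP112 is not given, so what part of its difference goes with a solvent cannot be told apart.

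The genes farthest from ethanol under the other treatments show the gap gene by gene. Myl1, a myosin light chain, had 1015 normalised counts with ethanol and 1205 with C646, and the authors' deposited tables gave 0.25 ± 0.13 for C646, 4.83 ± 0.13 for DMSO and 2.91 ± 0.13 for I-CBP112. Actn2, sarcomeric alpha-actinin, gave -0.09 ± 0.15 with C646 beside 2.83 ± 0.14 and 2.18 ± 0.14. Sln, sarcolipin, which restrains the calcium pump, gave 0.19 ± 0.31 beside 2.78 ± 0.30 and 2.79 ± 0.30. On the falling side Mfap4, a matrix glycoprotein, went from 3360 normalised counts with ethanol to 3046 with C646 (-0.14 ± 0.16), beside -3.29 ± 0.17 and -2.64 ± 0.16 in the authors' deposited tables. Insc, an adaptor in spindle orientation, gave -0.04 ± 0.28 beside -4.13 ± 0.36 and -4.10 ± 0.34. Aqp1, a water channel, gave 0.04 ± 0.16 beside -3.04 ± 0.16 and -2.59 ± 0.16. For Myl1, Actn2, Mfap4 and Aqp1 a 1.5-fold change with C646 was excluded, and for Sln and Insc a 2-fold change.

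**Figure D5:**
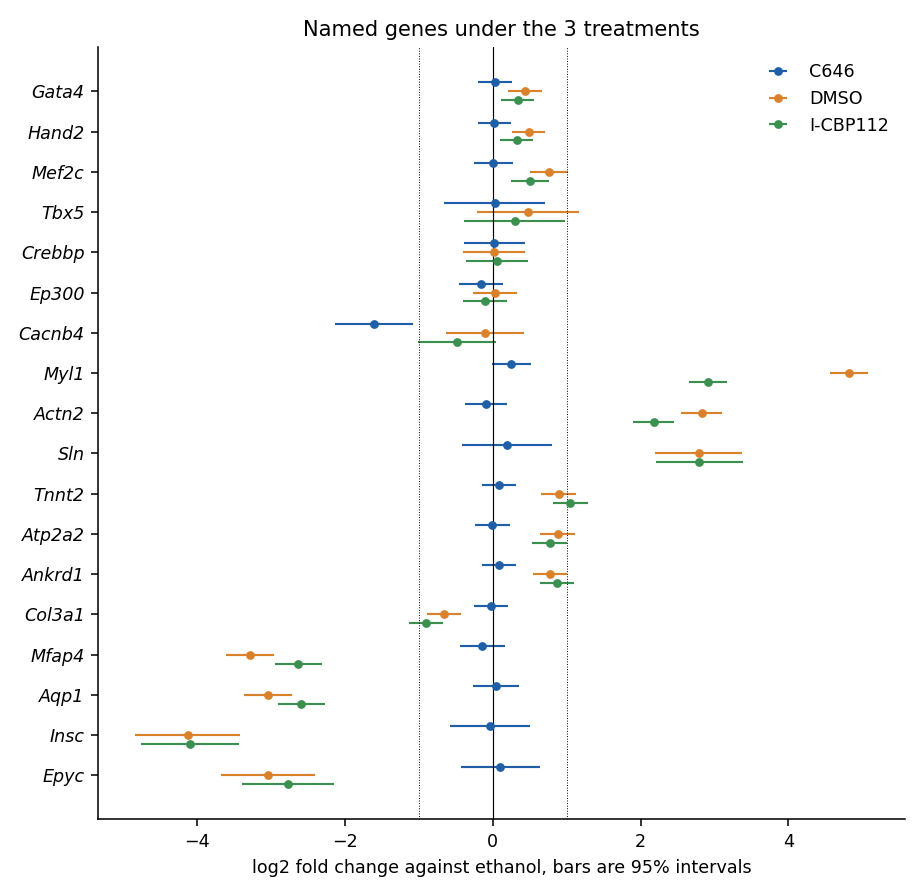
Log2 fold change against ethanol (x axis, bars are 95% intervals from the authors' SE) of 18 named genes (y axis) with C646, DMSO and I-CBP112; dotted lines mark 2-fold. The blue C646 points lie near 0 except Cacnb4 at -1.61, while Myl1 reaches 4.83 with DMSO and Insc falls to -4.13.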

How the data were processed

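RNA was sequenced from 8 libraries (TruSeq), and per the submitters' processing notes reads were quantified with kallisto 0.43.1 on GRCm38.p5 and tested with DESeq2 (version: not given in the sources used here). Deposited files used are the authors' 3 comparison tables without values of single libraries (0 columns of single libraries were left unused). The signal in them is the authors' mean normalised count over the 8 libraries, the log2 fold change and its SE are the authors' values on the log2 scale, the Wald statistic is a deposited score, and each p-value and adjusted p-value is the authors' deposited value. All results rest on these, with Python 3.11.15, NumPy 2.4.6, pandas 2.3.3 and SciPy 1.17.1.

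Intervals are normal 95% intervals. Exclusion used the larger of 2 one-sided normal p-values against limits of 2-, 1.5- and 1.25-fold, with Benjamini-Hochberg over 34250 genes at 0.05. SEs between treatments were rebuilt with 1 dispersion per gene and a group term only, which gave back 99.0%, 98.6% and 98.9% of the deposited SEs within 1% (C646, DMSO and I-CBP112). The dispersion was derived from the same deposited SEs, so this agreement is partly built in, and it was not checked on any other contrast. The scripts were tested on simulated data. Genes were named by rule: the reprogramming factors, Crebbp and Ep300, called genes, the 10 highest and lowest Wald statistics at a mean of 50 or more, the 6 genes highest and lowest under the other treatments, and the highest, lowest and most abundant of each list. Some genes that this rule names are not reported here. Members of the calcium channel and U3 groups, neighbours of Cacnb4, Fos, Egr1, Btg2, Myl4 and genes at 0 were picked after their values were seen. The comparison, the lists and the rules were chosen with earlier results of these data known. GENCODE M21 held 50376 of the 50600 identifiers. RefSeq promoter windows were found for 72.8% of tested genes, below 80%, so a comparison of genes by promoter motif is void and is not given. Alternatives changed the genes in the adjustment, the reference distribution, the scaling, the SE and the filter on low means. Counting errors alone set no interval here, and depth was estimated from the tables.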

Additional observations from a re-analysis of the deposited data

How the results depend on the processing

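The count of 2 genes past the test changed under several settings. It was 1 over the genes tested in the DMSO table and 1 over genes with a mean of 100 or more, since Gm37167 is too low to enter either, and it was 0 with p-values from a t distribution with 4 degrees of freedom, which ended the Cacnb4 call as well. By DESeq2, 199 genes had a deposited unadjusted p under 0.05. With 2 alternatives chosen after seeing the data, it was 1 without genes under the floor in either group and 3 at an adjusted p of 0.1. The number of genes with a 2-fold change excluded ran from 10310 (t distribution) to 12878 over 5 alternatives, and the median log2 fold change stayed between 0 and 0.012. With the SE set to its upper bound, from adding both deposited variances, C646 differed from DMSO at 839 genes and from I-CBP112 at 501. The width of the intervals limits most statements of exclusion to genes of about 100 normalised counts or more. No paired analysis was possible because the deposited tables hold no values of single libraries, so neither the shared library numbers 2 and 3 nor the effect of leaving out 1 library could be examined.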
